A study of Mus musculus with 12 samples.

Results

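The 10 genes described here build or fill the acrosome, the vesicle that covers the front of the sperm nucleus. They are Acr, Acrbp, Zpbp, Zpbp2, Spaca1, Spaca3, Spaca4, Spaca7, Dpy19l2 and Spata16, and they were chosen by gene symbol from both deposited count tables. Each symbol matched 1 entry, which makes 10 of 51826 entries in the sperm table and 10 of 23502 in the testis table. The acrosome grows in round spermatids from vesicles of the Golgi that fuse, attach to the nuclear envelope and spread into a cap. It stores proteases, lysozyme-like proteins and membrane proteins that the sperm uses to reach and fuse with the egg. Some acrosome genes are already transcribed in pachytene spermatocytes.

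The study measured RNA by sequencing in mice that lack Xap5l or Xap5, a pair of related nuclear proteins proposed to regulate transcription in male germ cells. Its 12 libraries form 4 groups of 3 biological replicates. The sperm groups were mature sperm from the cauda epididymis of C57BL/6J mice at postnatal day 56, either wild type (WT) or carrying a Xap5l knockout (KO) made with CRISPR/Cas9. The testis groups were whole testes of C57BL/6J mice at postnatal day 16, either WT or Xap5 conditional knockout (cKO). In the cKO, a floxed Xap5 allele was deleted by Cre expressed from Stra8, a gene of premeiotic male germ cells, so the somatic cells of the testis were not targeted. The study's text describes its controls for the cKO as floxed males without Cre. These data hold no testis RNA of the Xap5l KO and no sperm RNA of the Xap5 cKO. The tissues were deposited as separate tables and were never tested against each other.

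Counts summed to 40198158, 38881197 and 41716085 in the sperm libraries of WT mice and, for the Xap5l KO, to 43373223, 49355735 and 52308452. They summed to 34063501, 36759054 and 35406808 in the testis libraries of WT mice and, for the Xap5 cKO, to 32251198, 33754554 and 32995710. At these depths, a count of 0 allows up to 3 counts, or 0.0574 to 0.0772 counts per 1000000 counts of the library (CPM) in sperm and 0.0816 to 0.093 CPM in testes. These limits cover counting error alone. In testes, WT replicate 3 stood apart. Its log2 CPM correlated with the cKO libraries at 0.928 to 0.933 across genes, against 0.897 to 0.903 for the other WT libraries, and genes are not independent replicates. In sperm, Xap5l KO replicate 3 correlated with the other KO libraries at 0.948 and 0.962, whereas those correlated with each other at 0.973. WT replicate 1 of sperm stood apart too, at 0.964 with each of the other WT libraries, which correlated with each other at 0.980. Mitochondrial transcripts took 20.2%, 24.0% and 19.3% of the counts in WT sperm and 27.4%, 18.6% and 10.5% in KO sperm. Calls of the members that rest on these libraries are given with and without them. For the other lists only some of these calls are given. Mean levels and correlations use all libraries.

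Each comparison was fitted over all genes of its table with edgeR's quasi-likelihood test, and p-values were adjusted by Benjamini-Hochberg over all tested genes. A gene passed at an adjusted p under 0.05, and it was called higher or lower if its fold change was also above 2. The targeted genes are listed under their official symbols, Fam50b for Xap5l and Fam50a for Xap5. Fam50b (chromosome 13, 34734850 to 34747623, GRCm38) gave 574, 440 and 419 counts in WT sperm against 18, 23 and 8 in KO sperm. It was called lower, with a log2 fold change of -5.15 ± 0.466 (SE) and an edgeR Benjamini-Hochberg adjusted p = 0.0118, and it was called without any 1 of the 6 libraries. Fam50a (chromosome X, 74313033 to 74320149) gave 819, 811 and 988 counts in WT testes against 673, 616 and 651 in cKO testes. The groups did not overlap, but the log2 fold change was -0.33 ± 0.126 (SE), under the fold threshold, with an edgeR Benjamini-Hochberg adjusted p = 0.0495. It no longer passed without WT replicate 1 (0.0922), WT replicate 3 (0.123), or cKO replicates 1 (0.0755), 2 (0.170) or 3 (0.0940), all edgeR Benjamini-Hochberg adjusted values.

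Each targeted gene also differed in the other mutant. In cKO testes Fam50b had 6, 0 and 7 counts against 532, 539 and 197 in WT, a log2 fold change of -6.48 ± 0.690 (SE) with an edgeR Benjamini-Hochberg adjusted p = 8.09e-05. Fam50b passed the filter on low counts only through the WT group, where it is high, so these values are a description. In Xap5l KO sperm Fam50a had 296, 487 and 649 counts against 548, 705 and 689 in WT. Its log2 fold change was -0.76 ± 0.201 (SE), with an edgeR Benjamini-Hochberg adjusted p = 0.0393, and it was not called. That difference passed without KO replicate 3 but not without any other 1 library, where the adjusted p by the same method lay between 0.0506 and 0.150.

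In Xap5l KO sperm, transcripts of acrosome genes were more abundant than in WT sperm. Of the 10 members, 8 were called higher, against 7.59% of the 20945 genes tested, and 9 passed as higher, against 9.02%. No member was called lower by edgeR, against 1.27% of all genes, and none passed as lower, against 3.07%. The count of members lower at an unadjusted p under 0.05 was also 0, and DESeq2 gave 0. The fold changes of the called members lay between 2.38 and 3.49. In 8 of the 10, every KO library lay above every WT library in CPM, against 19.2% of all genes. The median log2 fold change of the 10 was 1.38 (quartiles 1.27 and 1.59), beside -0.08 over all tested genes. Fewer or more cells of a type and less or more RNA per cell cannot be told apart in bulk RNA.

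The proteolytic system of the acrosome showed the widest spread in CPM among KO libraries of the 10 members. Acr encodes acrosin, a trypsin-like protease stored as an inactive precursor. It gave 974, 864 and 1139 counts in WT sperm against 4090, 5145 and 1473 in KO sperm. KO replicates 1 and 2 were far above WT, but KO replicate 3 at 25.3 CPM lay below WT replicate 1 at 29.6 CPM, so the groups overlapped. The mean rose from 24.9 ± 4.52 CPM (SD, n = 3) to 78.3 ± 47.5 CPM (SD, n = 3), a log2 fold change of 1.65 ± 0.460 (SE) with an edgeR Benjamini-Hochberg adjusted p = 0.0462. Acrbp encodes the protein that binds proacrosin and holds it in the vesicle. It gave 1955, 1643 and 2019 counts in WT against 5277, 8254 and 3366 in KO. The same KO replicate 3 was lowest, at 57.8 CPM against 59.3 CPM in WT replicate 1. The log2 fold change was 1.33 ± 0.358 (SE), with an edgeR Benjamini-Hochberg adjusted p = 0.0422. Of the exon bases of Acrbp, 29.8% also belong to other annotated genes, so reads there could not be assigned with certainty.

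Zpbp and Zpbp2 are paralogues whose products bind the zona pellucida and form part of the acrosomal matrix. Zpbp gave 681, 741 and 663 counts in WT sperm against 1603, 2987 and 2517 in KO sperm. All KO libraries, at 43.2 to 53.9 CPM, were above all WT libraries, at 14.3 to 20.7 CPM. Zpbp had a log2 fold change of 1.44 ± 0.216 (SE), with an edgeR Benjamini-Hochberg adjusted p = 0.0122. Zpbp2 gave 853, 917 and 975 counts in WT against 2146, 3892 and 2346 in KO. Its groups did not overlap either. The log2 fold change was 1.32 ± 0.245 (SE), with an edgeR Benjamini-Hochberg adjusted p = 0.0162. The paralogues thus differed by little in fold, 2.72 for Zpbp and 2.50 for Zpbp2, and that difference was not tested.

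Among the sperm acrosome associated proteins, Spaca1 had the largest log2 fold change of the 10 members. Spaca1 is a protein of the inner acrosomal membrane that is needed for a normally shaped acrosome. It gave 385, 544 and 389 counts in WT sperm against 1529, 2114 and 1935 in KO sperm. Every KO library was above every WT library, with means of 11.0 ± 2.34 CPM (SD, n = 3) in WT and 38.3 ± 5.23 CPM (SD, n = 3) in KO. Spaca1 had a log2 fold change of 1.80 ± 0.231 (SE), with an edgeR Benjamini-Hochberg adjusted p = 0.0118. That was the smallest value any gene reached in this comparison, and other genes, Spaca3 among them, shared it. Spaca3, a lysozyme-like protein, gave 279, 282 and 307 counts in WT against 879, 1204 and 1212 in KO. The groups were well apart, and the log2 fold change was 1.63 ± 0.205 (SE) with an edgeR Benjamini-Hochberg adjusted p = 0.0118. Spaca4, a lipid-anchored surface protein, gave 292, 256 and 316 counts in WT against 737, 954 and 791 in KO. Its groups did not overlap, and the log2 fold change was 1.25 ± 0.242 (SE) with an edgeR Benjamini-Hochberg adjusted p = 0.0175. Spaca7, a protein released when the acrosome opens, gave 578, 451 and 432 counts in WT against 1114, 1139 and 1092 in KO. It did not pass: the groups did not overlap in CPM, the log2 fold change was 0.92 ± 0.298 (SE), and the edgeR Benjamini-Hochberg adjusted p = 0.0692. Of its exon bases, 13.5% are shared with a gene on the other strand.

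The last pair acts while the acrosome is assembled. Dpy19l2 is a protein of the inner nuclear membrane that ties the acrosome to the nucleus, and its loss gives round-headed sperm. It gave 735, 821 and 782 counts in WT sperm against 1947, 3526 and 2279 in KO sperm. The groups did not overlap, and the log2 fold change was 1.43 ± 0.238 (SE) with an edgeR Benjamini-Hochberg adjusted p = 0.0137. Spata16, a Golgi protein of spermatids also tied to round-headed sperm, gave 1553, 1469 and 1398 counts in WT against 2666, 4538 and 3521 in KO. It passed with no overlap but missed the fold threshold, at 1.95-fold, with a log2 fold change of 0.96 ± 0.236 (SE) and an edgeR Benjamini-Hochberg adjusted p = 0.0324. Together the 10 genes summed to 206, 205 and 202 CPM before TMM scaling in WT sperm and to 507, 684 and 393 CPM in KO sperm. KO replicate 3 was again the lowest of its group for this sum, and all KO libraries lay above all WT libraries.

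**Figure D1:**
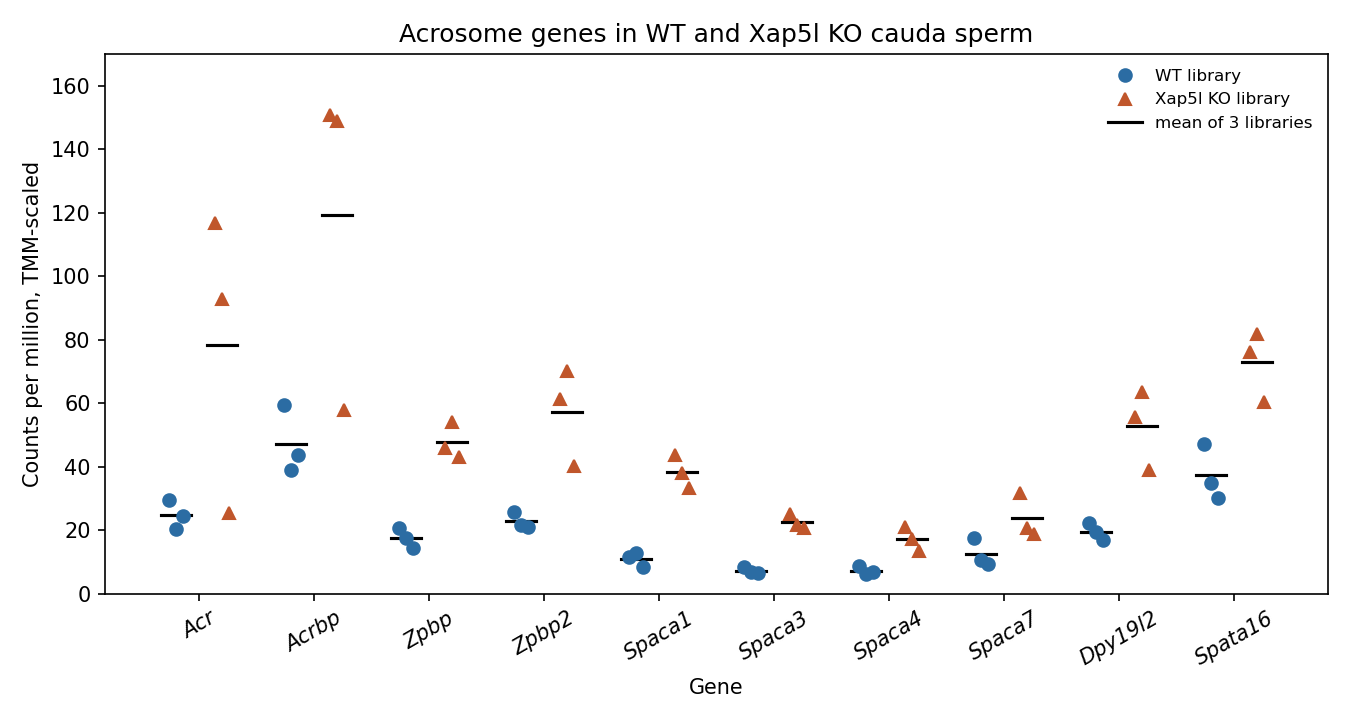
CPM (TMM-scaled) of the 10 acrosome genes in each cauda sperm library, with circles for WT, triangles for Xap5l KO and a bar at the mean of each group of 3. In 8 genes every KO library lies above every WT library, whereas for Acr and Acrbp KO replicate 3 lies at 25.3 and 57.8, within the WT range.

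The direction of the sperm result did not depend on a single library, but its calls did. All 10 log2 fold changes were positive in each of the 6 fits that left out 1 library. Without KO replicate 3 all 10 members were called higher, with log2 fold changes from 1.14 to 2.15, and so were 11.2% of all tested genes. Without WT replicate 1 the count was 8, against 8.76% of all tested genes, but Acr and Acrbp were no longer called and Spaca7 and Spata16 were. Without KO replicate 1 it was 4, against 2.24%, namely Spaca1, Spaca3, Zpbp and Dpy19l2. Without WT replicate 2, WT replicate 3 or KO replicate 2 it was 0, with the smallest edgeR Benjamini-Hochberg adjusted p of any member at 0.0734, 0.0812 and 0.0565. In those 3 fits edgeR called 1 gene of the whole table higher each time, while 10, 9 and 10 members were higher at an unadjusted p under 0.05, against 13.1%, 13.2% and 15.0% of all tested genes. With all libraries, DESeq2 called 8 members higher and passed 10.

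Most other genes of the acrosome's content also rose in KO sperm. Of 20 other genes for acrosomal enzymes and membrane proteins, 14 were called higher, against 7.59% of all tested genes, and 15 passed as higher, against 9.02%. None was called lower by edgeR, at an unadjusted p under 0.05 or by DESeq2, and the median log2 fold change was 1.32. Izumo1, the sperm surface protein that binds the egg receptor Juno, gave 344, 375 and 380 counts in WT against 1242, 1783 and 1105 in KO. All KO libraries were above all WT libraries, at a log2 fold change of 1.65 ± 0.264 (SE) with an edgeR Benjamini-Hochberg adjusted p = 0.0128. Of the exon bases of Izumo1, 21.9% are shared with Rasip1. Spaca5, another lysozyme-like protein, gave 23, 35 and 34 counts in WT against 109, 132 and 121 in KO, with a log2 fold change of 1.73 ± 0.308 (SE) and an edgeR Benjamini-Hochberg adjusted p = 0.0149. Crisp2, a cysteine-rich protein of the acrosome and tail, was the most abundant of the 20 in WT in CPM and did not pass. It gave 84107, 64221 and 60403 counts in WT against 94202, 110941 and 199909 in KO, at a log2 fold change of 0.59 and an edgeR Benjamini-Hochberg adjusted p = 0.280. The other genes that did not pass were Spink2, Prss37, Spaca6 and Tex101, named after their values were seen. Without KO replicate 1 edgeR called 9 of the 20 higher, against 2.24% of all tested genes. Without WT replicate 2, WT replicate 3 or KO replicate 2 it called 0. In those fits 17, 16 and 17 were higher at an unadjusted p under 0.05, against 13.1%, 13.2% and 15.0% of all tested genes.

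Of 24 genes of the Golgi and vesicle traffic known for acrosome formation, 2 were called higher in KO sperm, a share near the 7.59% of all tested genes. As higher 5 passed, against 9.02% of all tested genes, and as lower 2, against 3.07%, with a median log2 fold change of 0.40. The called genes were Garin1a and Ccdc62. Garin1a, a Golgi protein that binds the small GTPase RAB2, was the most abundant in WT in CPM, with 38066, 30663 and 39439 counts in WT and 98742, 101809 and 105507 in KO. Every KO library exceeded every WT library, at a log2 fold change of 1.24 ± 0.331 (SE) with an edgeR Benjamini-Hochberg adjusted p = 0.0411. Ccdc62 had a log2 fold change of 1.10 ± 0.221 (SE), with an edgeR Benjamini-Hochberg adjusted p = 0.0190. Vps54, a subunit of the tethering complex that receives vesicles at the Golgi, fell by 0.79 on the log2 scale (edgeR Benjamini-Hochberg adjusted p = 0.0428). Gopc, a Golgi scaffold needed for the acrosome, fell by 0.77 (edgeR Benjamini-Hochberg adjusted p = 0.0467). Neither reached a fold of 2, and edgeR called 0 of the 24 lower, with 4 lower at an unadjusted p under 0.05 and 0 called by DESeq2. Calls in this list rested on single libraries, as did those of the whole table. There edgeR called 1, 1, 483 and 1 genes higher without WT replicate 2, WT replicate 3, KO replicate 1 and KO replicate 2. EdgeR called 4 of the 24 higher without WT replicate 1 and 5 without KO replicate 3, against 8.76% and 11.2% of all tested genes. In the latter fit Vps54 did not pass (edgeR Benjamini-Hochberg adjusted p = 0.0640). Without WT replicate 2, WT replicate 3, KO replicate 1 or KO replicate 2 none of the 24 passed. In those fits 5, 5, 8 and 7 were higher at an unadjusted p under 0.05, against 13.1%, 13.2%, 14.9% and 15.0% of all tested genes.

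Of 15 genes of the acroplaxome, the plate between acrosome and nucleus, and of the spermatid nuclear envelope, 6 were called higher, against 7.59% of all tested genes, and 7 passed as higher, against 9.02%, with a median log2 fold change of 0.82. None was lower by edgeR, at an unadjusted p under 0.05 or by DESeq2. Actl7b, an actin-like protein of spermatids, gave 1821, 1700 and 1838 counts in WT against 5922, 9977 and 6728 in KO. Its KO libraries were all above WT, at a log2 fold change of 1.78 ± 0.256 (SE) with an edgeR Benjamini-Hochberg adjusted p = 0.0122. Of the exon bases of Actl7b, 90.9% are shared with a gene on the other strand, so its counts in either tissue could not be assigned with certainty. Sun5, which couples the sperm tail to the nucleus, had a log2 fold change of 1.70 ± 0.295 (SE) with an edgeR Benjamini-Hochberg adjusted p = 0.0144. Actl7a, the most abundant of the 15 in WT in CPM, did not pass, at a log2 fold change of 0.82 with an edgeR Benjamini-Hochberg adjusted p = 0.0648. It was called higher without WT replicate 1 and passed without KO replicate 3. Without KO replicate 1 edgeR called 4 of the 15, against 2.24% of all tested genes. It called 0 without WT replicate 2, WT replicate 3 or KO replicate 2. In those fits 8, 8 and 10 were higher at an unadjusted p under 0.05, against 13.1%, 13.2% and 15.0% of all tested genes.

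Paralogues of the members did not share one direction. Of 8, Lyzl1 was called higher and Dpy19l1 also passed, against 7.59% of all tested genes called and 9.02% passing, and the median log2 fold change was -0.37. Lyzl1, a testis lysozyme-like protein related to Spaca3, gave 149, 137 and 159 counts in WT against 397, 628 and 589 in KO. Its groups did not overlap, and the log2 fold change was 1.55 ± 0.220 (SE) with an edgeR Benjamini-Hochberg adjusted p = 0.0122. Lyz2, the lysozyme of macrophages and the most abundant of the 8 in WT in CPM, had a log2 fold change of -1.41 and did not pass (edgeR Benjamini-Hochberg adjusted p = 0.0625). The other Dpy19l genes, which encode mannosyltransferases or their relatives, are given beside Dpy19l2, and their differences from it were not tested. Dpy19l1 had a log2 fold change of 0.87 ± 0.202 (SE) with an edgeR Benjamini-Hochberg adjusted p = 0.0279. Dpy19l3 and Dpy19l4 did not pass, at log2 fold changes of 0.25 and -0.53 with edgeR Benjamini-Hochberg adjusted p = 0.544 and 0.499. By edgeR 0 of the 8 were called lower, Lyz1 and Lyz2 were lower at an unadjusted p under 0.05, and DESeq2 called 2 lower. Without KO replicate 3 edgeR called Lyz1 and Lyz2 lower. Lyzl1 was not called without WT replicate 2, WT replicate 3 or KO replicate 2, at edgeR Benjamini-Hochberg adjusted values of 0.0734, 0.0812 and 0.0565, and Dpy19l1 did not pass in those fits or without KO replicate 1.

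Of 9 regulators that act in spermatids, Taf7l and Rfx4 were called higher, against 7.59% of all tested genes. At an unadjusted p under 0.05 the count was 6, against 18.6% of all tested genes. A positive log2 fold change was found for 7, against 9565 of the 20945 genes tested. Taf7l, a testis subunit of the general factor TFIID, gave 86, 109 and 108 counts in WT against 303, 415 and 313 in KO. All KO libraries were above WT, at a log2 fold change of 1.51 ± 0.253 (SE) with an edgeR Benjamini-Hochberg adjusted p = 0.0139. Rfx4, a winged-helix factor, had a log2 fold change of 1.29 ± 0.355 (SE) with an edgeR Benjamini-Hochberg adjusted p = 0.0444. Rfx2, a regulator of cilia and spermatid genes and the most abundant of the 9 in WT in CPM, had a log2 fold change of -0.16 with an edgeR Benjamini-Hochberg adjusted p = 0.753. No gene of the 9 was lower by edgeR, at an unadjusted p under 0.05 or by DESeq2. Without WT replicate 1 Rfx4 was not called and Tcfl5 was, with an edgeR Benjamini-Hochberg adjusted p = 0.0531 for Rfx4. Without KO replicate 1 Taf7l alone was called, and without KO replicate 3 the count was 4, against 2.24% and 11.2% of all tested genes. Without WT replicate 2, WT replicate 3 or KO replicate 2 edgeR called 0 of the 9. In those fits 4, 3 and 4 were higher at an unadjusted p under 0.05, against 13.1%, 13.2% and 15.0% of all tested genes.

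Markers of cell types moved with the sperm result, and their part in it was not tested. Sums over marker lists are in CPM before TMM scaling, in sperm and in testes. Mature sperm RNA was present in both groups: the 9 markers of elongating spermatids summed to 106600, 56780 and 69400 CPM in WT and 67890, 50470 and 72490 CPM in KO, with Smcp most abundant. Of these 9 markers 1, Akap4, was called higher, against 7.59% of all tested genes. In that list 7 log2 fold changes were positive, with a median of 0.70, while Smcp and Odf1 were at -0.97 and -0.69 and did not pass. Of 8 markers of round spermatids, 6 were called higher, against 7.59% of all tested genes. The list summed to 811, 615 and 674 CPM in WT and 1011, 1180 and 1264 CPM in KO, with Tssk2 most abundant. Acrv1, Sun5 and Spag4 stand in that list and also in the acrosome lists. Of 8 pachytene markers 3 were called higher, namely Ldhc, Hspa2 and Clgn, against 7.59% of all tested genes. At an unadjusted p under 0.05, 5 were higher, against 18.6% of all tested genes. EdgeR and DESeq2 called 0 of them lower, but Piwil1 and Mlh3 were lower at an unadjusted p under 0.05, at log2 fold changes of -0.97 and -0.79. That list summed to 2175, 1838 and 1845 CPM in WT and 2858, 3807 and 3900 CPM in KO, with Pgk2 most abundant. Of 8 leukocyte markers 2 were called lower, C1qa and S100a9, against 1.27% of all tested genes. The list summed to 641, 771 and 885 CPM in WT and 128, 402 and 524 CPM in KO, with Lyz2, which is also among the paralogues, most abundant. Markers of epididymal epithelium summed to 4901, 8783 and 7674 CPM in WT and 4035, 4709 and 6564 CPM in KO, with Crisp1 most abundant. EdgeR called 0 of the 5 tested, with 2 lower at an unadjusted p under 0.05 and 0 called by DESeq2. Erythroid markers summed to 18720, 4877 and 7736 CPM in WT and 4480, 1844 and 4178 CPM in KO, with Hbb-bs most abundant. EdgeR and DESeq2 called 0 of those 5, with 4 lower at an unadjusted p under 0.05 by edgeR and a median log2 fold change of -1.63. Without WT replicate 1, the library with the highest erythroid sum, that median was -0.67 and 0 were lower at an unadjusted p under 0.05, and without KO replicate 2 it was -1.30 with 0. With library size alone, or with a replicate block, edgeR called 3 of the 5 lower, against 149 and 147 of the 20945 genes tested.

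Other marker lists had no call in sperm by edgeR. General epithelium summed to 221, 326 and 289 CPM in WT and 144, 226 and 270 CPM in KO, with Krt18 most abundant, 2 genes lower at an unadjusted p under 0.05 and 0 called by DESeq2. Sertoli markers summed to 522, 777 and 842 CPM in WT and 1073, 1424 and 1172 CPM in KO, nearly all of it Clu, with 1 gene in each direction at an unadjusted p under 0.05 and 0 called by DESeq2. Leydig markers summed to at most 27.6 CPM, with 2 lower at an unadjusted p under 0.05 and 1 called lower by DESeq2. Markers of spermatogonia and of leptotene and zygotene cells summed to at most 30.3 CPM, with 1 and 0 genes at an unadjusted p under 0.05 and 0 called by DESeq2. No defining marker of any list was at 0 in all sperm libraries. Without WT replicate 2, WT replicate 3 or KO replicate 2, edgeR called 0 genes of every marker list. Without KO replicate 1 it called 5 round spermatid markers higher, against 2.24% of all tested genes, and 0 of the pachytene, elongating spermatid and leukocyte markers. Of those 3 lists, 3, 2 and 0 were higher at an unadjusted p under 0.05, against 14.9% of all tested genes, and 1, 1 and 3 lower. Without KO replicate 3 it called 5 leukocyte markers and 1 epididymal marker lower, against 443 of the 21449 genes tested in that fit. In the same fit 2 elongating spermatid and 4 pachytene markers were called higher, Ybx2 added to the latter, against 11.2% of all tested genes. Without WT replicate 1 it called 1 leukocyte marker lower, S100a9, against 349 of the 21820 genes tested in that fit. It also called 2 elongating spermatid markers higher, against 8.76% of all tested genes.

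In Xap5 cKO testes, acrosome transcripts present at this age were lower than in WT testes, with 1 exception, Spaca1. Of the 10 members, 7 passed the filter on low counts, and 6 of these were called lower, against 10.9% of the 16821 genes tested. The same 6 passed as lower, against 28.1%, and in each every cKO library lay below every WT library, against 32.4% of all genes. Acr, Dpy19l2 and Spata16 passed the filter only through the WT group, where they are high. These counts, and the test values of those 3 genes, are therefore a description. No member was called higher by edgeR, against 4.15% of all genes, and none passed as higher, against 25%. The count higher at an unadjusted p under 0.05 was 0, and DESeq2 called 0. The log2 fold changes of the 6 ran from -1.49 to -7.48. Spaca3 and Spaca7 had 0 counts in all 6 testis libraries, and Spaca4 had 1 count, in WT replicate 3.

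Acr was nearly absent from cKO testes. It gave 815, 954 and 403 counts in WT against 2, 0 and 9 in cKO. WT replicate 3 had the fewest counts of the WT libraries and was still far above every cKO library. The means were 20.6 ± 8.15 CPM (SD, n = 3) in WT and 0.112 ± 0.143 CPM (SD, n = 3) in cKO. The log2 fold change was -7.48 ± 0.654 (SE), or 179-fold lower, with an edgeR Benjamini-Hochberg adjusted p = 3.28e-05. Acr passed the filter on low counts only through the WT group, so these values are a description. The size of that change rested on few cKO counts: the log2 fold change was -6.88 without cKO replicate 2 and -9.25 without cKO replicate 3. Acrbp fell too, and the difference from Acr was not tested. It gave 1282, 1272 and 546 counts in WT against 199, 346 and 228 in cKO. WT replicate 3 was again the lowest WT library, with no overlap, and the log2 fold change was -1.92 ± 0.337 (SE) with an edgeR Benjamini-Hochberg adjusted p = 0.00123.

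The zona-binding paralogues also fell by unlike amounts. Zpbp gave 1785, 1769 and 1133 counts in WT testes against 407, 574 and 591 in cKO testes. It stayed well detected in cKO, and the log2 fold change was -1.49 ± 0.208 (SE), or 2.81-fold lower, with an edgeR Benjamini-Hochberg adjusted p = 0.000336. Zpbp2 gave 916, 835 and 215 counts in WT against 30, 53 and 32 in cKO. WT replicate 3 was lower than the other WT libraries here too, and the log2 fold change was -4.01 ± 0.545 (SE), or 16.2-fold lower, with an edgeR Benjamini-Hochberg adjusted p = 0.000293. The difference between the paralogues was not tested. Of the exon bases of Zpbp, 5.25% are shared with Spata48 on the other strand.

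Both genes of acrosome assembly were close to the detection limit in cKO testes. Both passed the filter on low counts only through the WT group, so their values are a description. Dpy19l2 gave 1319, 1184 and 473 counts in WT against 7, 18 and 8 in cKO. All WT libraries were far above all cKO libraries, at a log2 fold change of -6.40 ± 0.515 (SE), or 84.3-fold lower, with an edgeR Benjamini-Hochberg adjusted p = 2.46e-05. Spata16 gave 1417, 1374 and 359 counts in WT against 16, 2 and 22 in cKO. WT replicate 3 was lowest in WT but above every cKO library. Spata16 had a log2 fold change of -6.20 ± 0.715 (SE), or 73.3-fold lower, with an edgeR Benjamini-Hochberg adjusted p = 0.00012.

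Spaca1 alone among the 7 tested members did not pass. It gave 329, 269 and 201 counts in WT testes against 298, 370 and 354 in cKO testes. The groups overlapped, at 7.59 ± 2.11 CPM (SD, n = 3) in WT and 10.3 ± 0.892 CPM (SD, n = 3) in cKO. The log2 fold change was 0.44 ± 0.226 (SE), with an edgeR Benjamini-Hochberg adjusted p = 0.131. Without WT replicate 1, the WT library with the most Spaca1, it passed as higher but was not called, at a log2 fold change of 0.66 with an edgeR Benjamini-Hochberg adjusted p = 0.0386. The members summed to 231, 208 and 94.1 CPM before TMM scaling in WT and to 29.7, 40.4 and 37.7 CPM in cKO, with WT replicate 3 nearest to the cKO libraries. The same 6 members were called lower without WT replicate 3, with a lowest log2 fold change of -7.78, and 6 were called without each of the other libraries. In these fits between 1687 and 1955 genes of the whole table were called lower.

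**Figure D2:**
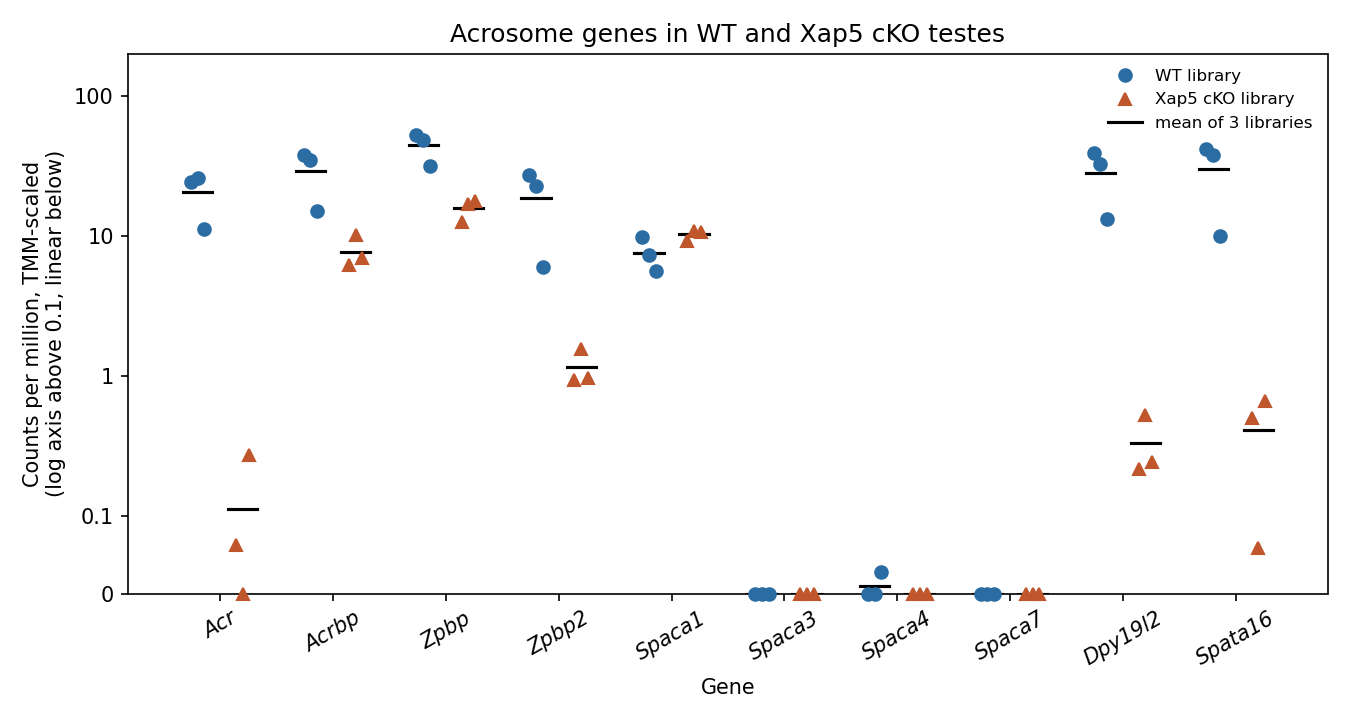
CPM (TMM-scaled, log axis above 0.1 and linear below) of the 10 acrosome genes in each testis library, with circles for WT, triangles for Xap5 cKO and a bar at the mean of each group of 3. Acr, Zpbp2, Dpy19l2 and Spata16 lie far below WT in all cKO libraries, Spaca1 overlaps, and Spaca3 and Spaca7 are at 0 throughout.

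**Figure D3:**
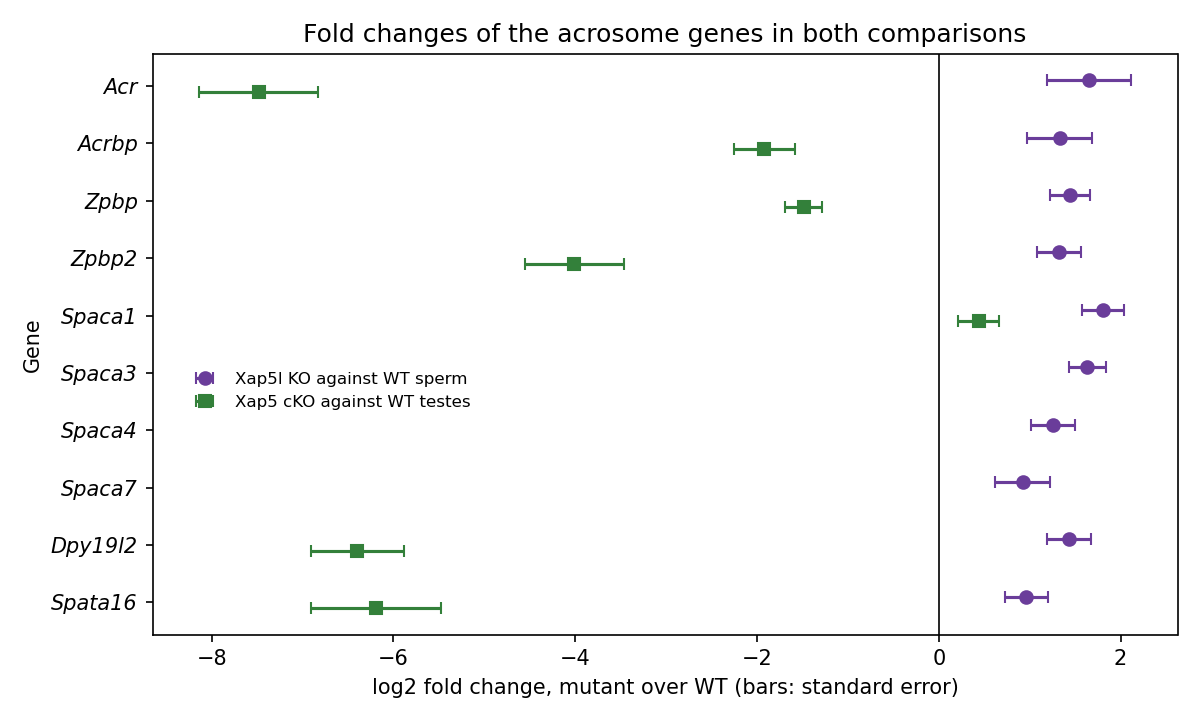
Log2 fold change of each tested member, mutant over WT, with its standard error, in Xap5l KO sperm (circles) and Xap5 cKO testes (squares). Sperm values lie between 0.92 and 1.80, testis values between -7.48 and 0.44, and Spaca3, Spaca4 and Spaca7 have no testis value since they did not pass the filter on low counts.

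The other genes for acrosomal content were in part not detected at this age. Of 20, 10 passed the filter, and edgeR called 6 lower, against 10.9% of all tested genes, and 0 higher, against 4.15%, with 0 higher at an unadjusted p under 0.05 and 0 by DESeq2. Some of the tested genes, Spaca9 and Zan among them, passed the filter only through the WT group, so these counts are a description. With at least 10 counts in every library, 6 were tested and 5 were called lower, against 1542 of the 15393 genes tested. Zp3r, Spam1, Hyal5 and Prss37 had 0 counts in all testis libraries. Tex101, a lipid-anchored germ cell protein, was the most abundant in WT in CPM, with 20851, 22502 and 17136 counts in WT and 7569, 9027 and 11361 in cKO. Its groups did not overlap, and the log2 fold change was -1.02 ± 0.146 (SE) with an edgeR Benjamini-Hochberg adjusted p = 0.000393. Spink2, an inhibitor of acrosin, gave 1218, 1127 and 321 counts in WT against 12, 31 and 24 in cKO, at a log2 fold change of -5.23 ± 0.570 (SE) with an edgeR Benjamini-Hochberg adjusted p = 8.9e-05. Crisp2 gave 5982, 5049 and 1639 counts in WT against 99, 101 and 119 in cKO, at a log2 fold change of -5.23 ± 0.483 (SE) with an edgeR Benjamini-Hochberg adjusted p = 4.2e-05. WT replicate 3 was the lowest WT library for all 3 of these genes. Tex101 passed but fell under the fold threshold without WT replicate 1 (-0.96), WT replicate 2 (-0.96), cKO replicate 1 (-0.90) or cKO replicate 2 (-0.96), values on the log2 scale. Spaca9, named after its values were seen, passed the filter only through the WT group and was called lower, but not without WT replicate 1, WT replicate 2 or cKO replicate 2, at edgeR Benjamini-Hochberg adjusted values of 0.0797, 0.0712 and 0.0801. Other fits gained calls. Without cKO replicate 3 edgeR called 8 of 11 tested genes lower, Zan and Izumo1 among them, against 1860 of 17172 over the whole table. Leaving out WT replicate 3 gave 7 of 11, against 1955 of 17186.

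Of 24 Golgi and vesicle genes, 20 were tested in testes, and 15 passed as lower, against 28.1% of all tested genes. Pick1, Ccdc62 and Ssmem1, 3 of the 20, were called lower, a share near the 10.9% of all tested genes. As higher 2 passed, against 25% of all tested genes, and the median log2 fold change was -0.59. EdgeR and DESeq2 called 0 higher, and 2 were higher at an unadjusted p under 0.05. Ssmem1, a membrane protein of spermatids that passed the filter on low counts only through the WT group, gave 613, 642 and 255 counts in WT against 5, 35 and 18 in cKO. All cKO libraries were far below WT, at a log2 fold change of -4.62 ± 0.579 (SE) with an edgeR Benjamini-Hochberg adjusted p = 0.000188. For that reason the values of Ssmem1 are a description. Ccdc62 fell by 1.81 on the log2 scale (edgeR Benjamini-Hochberg adjusted p = 2.92e-05). Hsp90b1, an endoplasmic reticulum chaperone and the most abundant of the list in WT in CPM, fell by 0.25 (edgeR Benjamini-Hochberg adjusted p = 0.00307), and 15.7% of its exon bases are shared with other genes. The genes that passed as higher were Fads2, a fatty acid desaturase, at a log2 fold change of 0.42, and Itprid2 at 0.25, with edgeR Benjamini-Hochberg adjusted p = 0.000971 and 0.00663.

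Of 15 acroplaxome and nuclear envelope genes, 9 were tested, 6 were called lower, against 10.9% of all tested genes, and 7 passed as lower, against 28.1%. Sun3, Actl7b and Actl9 passed the filter on low counts only through the WT group, where they are high. These counts, and the test values of those genes, are therefore a description. With at least 10 counts in every library, 5 were tested and 3 were called lower, against 1542 of the 15393 genes tested. EdgeR and DESeq2 called 0 higher, and 0 were higher at an unadjusted p under 0.05. Actrt1, Cylc1 and Cylc2 had 0 counts throughout. Actl7b gave 518, 459 and 237 counts in WT against 0, 16 and 4 in cKO, and Actl9, another actin-like protein, had 153, 216 and 117 in WT and 8, 4 and 6 in cKO. Neither overlapped between groups. Their log2 fold changes were -5.82 ± 0.716 (SE) and -4.62 ± 0.423 (SE), with edgeR Benjamini-Hochberg adjusted p = 0.000167 and 3.98e-05. Sun1, a nuclear envelope protein of many cells and the most abundant of the list in WT in CPM, fell by 0.58 on the log2 scale (edgeR Benjamini-Hochberg adjusted p = 0.000121). Without WT replicate 1 the count called lower was 5, since Nectin3 was at -0.98, against 1716 of the 17140 genes tested.

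Paralogues of the members again went both ways. Of 8, 5 were tested, 1 was called lower and 1 higher, against 10.9% and 4.15% of all tested genes, and Lyzl1 and Prss55 had 0 counts in all testis libraries. Prss50, a testis protease related to acrosin and the most abundant in WT in CPM, was called lower, at a log2 fold change of -1.08 ± 0.101 (SE) with an edgeR Benjamini-Hochberg adjusted p = 4.26e-05. Lyz2 was called higher, at a log2 fold change of 1.02 ± 0.174 (SE) with an edgeR Benjamini-Hochberg adjusted p = 0.00106. Neither call had a margin over the fold threshold: Prss50 was at -0.99 without cKO replicate 1, and Lyz2 was at 0.85, 0.99 and 0.94 without WT replicate 2, WT replicate 3 and cKO replicate 2, on the log2 scale. The other Dpy19l genes were not called in either direction. Dpy19l3 passed as higher at a log2 fold change of 0.50, Dpy19l4 passed at 0.23, and Dpy19l1 did not pass at -0.09, with edgeR Benjamini-Hochberg adjusted p = 0.00507, 0.0388 and 0.390. Dpy19l4 no longer passed without WT replicates 1 or 2 or cKO replicates 1 or 2, at edgeR Benjamini-Hochberg adjusted values of 0.118, 0.128, 0.140 and 0.0749.

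Most regulators of spermatid genes fell in cKO testes. Of 9, 6 were called lower, against 10.9% of all tested genes, and 8 passed as lower, against 28.1%. These counts include Rfx4, which passed the filter on low counts only through the WT group, so they and the test values of Rfx4 are a description. With at least 10 counts in every library, 8 were tested, 5 were called lower, against 1542 of the 15393 genes tested, and 7 passed as lower. EdgeR and DESeq2 called 0 higher, with 0 higher at an unadjusted p under 0.05. Rfx4 gave 922, 1048 and 518 counts in WT against 6, 7 and 4 in cKO. All WT libraries were far above all cKO libraries, at a log2 fold change of -7.07 ± 0.386 (SE) with an edgeR Benjamini-Hochberg adjusted p = 8.8e-06. Rfx2 had a log2 fold change of -2.55 ± 0.211 (SE), with an edgeR Benjamini-Hochberg adjusted p = 2.72e-05. Taf7l, the most abundant of the 9 in WT in CPM, did not pass, at a log2 fold change of 0.13 with an edgeR Benjamini-Hochberg adjusted p = 0.246.

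Markers of the cells in the testis moved with these results, and their part in them was not tested. Of 8 pachytene markers, 7 were called lower, against 10.9% of all tested genes, and 8 passed as lower, against 28.1%. Pgk2 passed the filter on low counts only through the WT group, so these counts are a description. With at least 10 counts in every library 7 were tested and 6 were called lower, against 1542 of the 15393 genes tested. The list summed to 2501, 2472 and 1349 CPM in WT and 216, 217 and 327 CPM in cKO, with Hspa2 most abundant. WT replicate 3 was lowest in WT for this list, as it was for the acrosome genes. Of 8 leptotene and zygotene markers, 7 were called lower, against 10.9% of all tested genes. The list summed to 1905, 1956 and 1740 CPM in WT and 818, 895 and 1119 CPM in cKO, with Sycp1 most abundant. Of 8 spermatogonia markers 1, Sohlh1, was called lower, against 10.9% of all tested genes. As lower 6 passed, against 28.1%, and Gfra1 passed as higher, against 25%. The list had sums of 643, 684 and 767 CPM in WT and 513, 528 and 490 CPM in cKO, with Uchl1 most abundant. Gfra1 did not pass without WT replicate 1, WT replicate 2, cKO replicate 1 or cKO replicate 3, at edgeR Benjamini-Hochberg adjusted values of 0.0826, 0.0824, 0.0905 and 0.120. Most spermatid markers did not pass the filter on low counts. Round spermatid markers, 2 of 8 tested, summed to 5.90, 5.39 and 5.14 CPM in WT and 2.95, 2.13 and 2.73 CPM in cKO, most of it Spag4, which was called lower. Elongating spermatid markers, of which Gapdhs alone of 9 was tested, summed to 5.37, 4.76 and 5.06 CPM in WT and 5.83, 4.74 and 5.33 CPM in cKO, most of it Gapdhs, and Prm2, Prm3 and Smcp had 0 counts in all libraries. Gapdhs was not called by edgeR or DESeq2, and its unadjusted p was not under 0.05.

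Markers of Sertoli, Leydig and white blood cells were higher in sum in cKO testes. Sertoli markers summed to 3803, 4233 and 4172 CPM in WT and 6872, 6748 and 8332 CPM in cKO, with Clu most abundant. As higher 7 of 8 passed, against 25% of all tested genes, and 1, Amh, was called, against 4.15%. Leydig markers summed to 331, 191 and 317 CPM in WT and 647, 744 and 388 CPM in cKO, with Insl3 most abundant. Of the 6, 3 were called higher, Hsd3b1, Insl3 and Lhcgr, against 4.15% of all tested genes. Without cKO replicate 3 all 6 were called higher, against 4.19% of all tested genes. Hsd3b1 was not called without WT replicate 2, and without WT replicate 3 Insl3 was not called and Star was. Leukocyte markers summed to 142, 97.0 and 97.4 CPM in WT and 243, 272 and 201 CPM in cKO, with Lyz2 most abundant and S100a8 and S100a9 at 0. Of the 6 tested, 4 were called higher, Cd68, Lyz2, C1qa and Csf1r, against 4.15% of all tested genes. Without WT replicate 3 or cKO replicate 2 Csf1r alone was called, without WT replicate 2 or cKO replicate 1 the count was 3, and without WT replicate 1 it was 6. In these fits 3.26% to 5.14% of all tested genes were called higher. General epithelium summed to 59.6, 66.6 and 59.0 CPM in WT and 46.5, 48.8 and 54.7 CPM in cKO, with Epcam most abundant. Of its 5 markers 2, Krt18 and Cldn4, were called higher, against 4.15% of all tested genes. With at least 10 counts in every library neither was tested, since Krt18 had 0, 4 and 6 counts in WT and Cldn4 9, 4 and 17. They passed the filter on low counts through cKO libraries, where they are high, so their calls are a description. Without cKO replicate 3 Cldn4 was not called, and 2 erythroid markers, Hba-a1 and Hbb-bt, were called higher, against 4.19% of all tested genes. With all libraries edgeR and DESeq2 called 0 erythroid markers, with 0 at an unadjusted p under 0.05, and the list summed to 43.7, 39.6 and 73.3 CPM in WT and 78.8, 96.6 and 32.0 CPM in cKO, with Hbb-bs most abundant. Of 8 markers of epididymal epithelium, 6 had 0 counts in all testis libraries and none was tested. Sertoli calls were 2 without WT replicate 2 (Fshr), cKO replicate 1 (Fshr) or cKO replicate 2 (Gata4), the added gene in brackets. All tested genes called higher in those fits were 3.26%, 3.52% and 3.83%.

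Levels between genes were compared as CPM per kilobase of merged exon (RPKM, means ± SD, n = 3). In WT sperm, Spata16 was highest at 17.7 ± 4.14 RPKM, followed by Acr at 15.9 ± 2.88, Acrbp at 14.4 ± 3.25, Zpbp2 at 13.6 ± 1.55, Spaca7 at 12.8 ± 4.49 and Spaca4 at 10.3 ± 2.03 RPKM. Spaca3 at 7.64 ± 1.09, Spaca1 at 6.89 ± 1.47, Dpy19l2 at 5.68 ± 0.788 and Zpbp at 4.13 ± 0.748 RPKM came last. Libraries of neighbours in this order overlapped, except between Dpy19l2 and Zpbp. Zpbp2 and Spaca7, and Spaca4 and Spaca3, did not overlap either without WT replicate 1. All 10 stood in the top 12.5% of 47498 entries with a length, and Spata16 in the top 3.57%. That ranking includes entries without counts: of 51826 entries, 28204, 28811 and 28775 had a count in the WT sperm libraries. Among detected genes the members thus rank less high. In KO sperm the order began with Acr at 50.0 ± 30.3, Acrbp at 36.4 ± 16.2, Spata16 at 34.5 ± 5.27 and Zpbp2 at 34.0 ± 9.15 RPKM. Spaca4, Spaca7, Spaca1 and Spaca3 lay together between 23.7 and 24.4 RPKM, and Dpy19l2 at 15.3 ± 3.64 and Zpbp at 11.2 ± 1.32 RPKM were again last. Libraries of neighbours overlapped there too, except between Spaca3 and Dpy19l2. The mean of Acr there covers 74.5, 59.3 and 16.1 RPKM, the last in KO replicate 3. Without that library Acr and Acrbp, Acrbp and Spata16, Zpbp2 and Spaca4, and Dpy19l2 and Zpbp did not overlap either. Divided by the longest transcript instead, Acrbp was the highest member in WT sperm, KO sperm and WT testes, so its place depends on the length used.

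In WT testes the order by RPKM was Spata16 at 14.2 ± 8.26, Acr at 13.1 ± 5.20, Zpbp2 at 11.1 ± 6.68, Zpbp at 10.5 ± 2.69, Acrbp at 8.98 ± 3.80, Dpy19l2 at 8.22 ± 3.94 and Spaca1 at 4.75 ± 1.32. The libraries of all neighbours among these 7 overlapped, which rested on WT replicate 3. Without it Spata16 and Acr, Zpbp2 and Zpbp, and Dpy19l2 and Spaca1 did not overlap. In cKO testes the order changed: Spaca1 came first at 6.45 ± 0.559 RPKM, then Zpbp at 3.72 ± 0.658, Acrbp at 2.37 ± 0.644 and Zpbp2 at 0.685 ± 0.207 RPKM. Spata16 at 0.193 ± 0.149, Dpy19l2 at 0.0958 ± 0.0501 and Acr at 0.0714 ± 0.0914 RPKM were not separated from each other with all libraries. Without cKO replicate 2 Spata16 and Dpy19l2 did not overlap, and without cKO replicate 3 Dpy19l2 and Acr did not. Zpbp and Acrbp overlapped with all libraries but not without cKO replicate 1 or cKO replicate 2. Spaca1, lowest of the 7 in WT testes per length, was thus the highest of the members in cKO testes.

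The members that were tested in both tables were also compared by pattern, as a description. Within each tissue, log2 CPM was scaled to a mean of 0 and an SD of 1 over the libraries of each gene, and each member was correlated with the mean of the other 6 over 12 libraries. Spaca1 stood out, with r at 0.215, whereas the other members lay between 0.876 and 0.983, and the libraries fall into groups that carry these values. Among 13952 other genes, the nearest to the mean of all 7 were Ybx3 at 0.991, Mycbpap at 0.990, Trim69 at 0.990, Toporsl at 0.989 and Ropn1l at 0.986. A correlation above 0.95 was reached by 2.76% of those genes.

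The members do not lie together in the genome. On GRCm38, Acr lies on chromosome 15 (89568326 to 89574585), Acrbp on 6 (125049689 to 125063267), Spaca1 on 4 (34024874 to 34050191) and Spaca4 on 7 (45725107 to 45725813, a gene of 1 exon). Spaca7 lies on chromosome 8 (12573029 to 12600744), Dpy19l2 on 9 (24557047 to 24696293) and Spata16 on 3 (26637620 to 26983212). Chromosome 11 holds 3 members, Zpbp (11279626 to 11462408), Spaca3 (80858365 to 80867814) and Zpbp2 (98551097 to 98558665), which are far apart. Of the 10 members, 9 had a promoter window from RefSeq (GRCm38.p6), and Acr had none. Spaca1 and Spaca3 had 2 overlapping windows each, so 11 windows were searched on both strands over the 250 bases before the start, beside all 32851 windows of the table. GGGCGGGG or its reverse complement occurred in 3 of the 11 windows, those of Acrbp, Zpbp2 and Spata16, and in 16.1% of all windows. TGACG was found in 6 of the 11, for 4 of the 9 members, Acrbp, Spaca1, Spaca3 and Zpbp2, and in 17.8% of all windows. The overlapping windows of Spaca1, and those of Spaca3, hold the same sites. TGACGTCA, which contains TGACG, was found in 0 and in 1.55%. GTTGCC was found in 1, for Acrbp, and in 10.4%, and ACAAT in 1, for Dpy19l2, and in 27.7%. All matches of Acrbp and Spaca1 lay inside the annotated gene, and the Spaca3 windows overlapped annotated exons by 173 and 162 bases. A match is a run of letters and shows no binding.

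The upstream sequences of Zpbp2, Spata16 and Zpbp are printed because all 3 genes passed as higher in KO sperm and were called lower in cKO testes, with and without a match to GGGCGGGG. They are RefSeq sequences on GRCm38.p6, read 5′ to 3′ on the strand of the gene and limited to bases outside annotated exons, with GGGCGGGG or its reverse complement in capitals. Zpbp2 (chr11:98550847-98551096, + strand) has it 11 to 4 bases before the start, Spata16 (chr3:26637381-26637619, + strand) 54 to 47 bases before the start, and Zpbp, the paralogue of Zpbp2 (chr11:11462420-11462669, - strand) has none.
Zpbp2: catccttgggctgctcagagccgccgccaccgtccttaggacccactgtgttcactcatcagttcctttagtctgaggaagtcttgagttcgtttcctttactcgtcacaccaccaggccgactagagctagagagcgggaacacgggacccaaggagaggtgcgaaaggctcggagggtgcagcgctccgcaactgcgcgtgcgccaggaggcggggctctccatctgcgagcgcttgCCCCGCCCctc
Spata16: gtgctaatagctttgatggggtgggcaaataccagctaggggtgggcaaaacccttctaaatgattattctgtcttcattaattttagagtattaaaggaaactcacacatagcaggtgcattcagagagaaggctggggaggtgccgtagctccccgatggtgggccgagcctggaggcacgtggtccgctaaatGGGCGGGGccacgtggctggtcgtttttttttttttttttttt
Zpbp: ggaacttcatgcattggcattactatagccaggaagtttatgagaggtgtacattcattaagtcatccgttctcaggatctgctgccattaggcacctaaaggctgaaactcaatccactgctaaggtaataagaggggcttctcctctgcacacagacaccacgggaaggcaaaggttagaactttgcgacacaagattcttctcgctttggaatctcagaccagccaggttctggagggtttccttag
In the 250 bases before the start, G and C made up 62.4% for Zpbp2, 47.2% for Spata16 and 46.8% for Zpbp.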

How the data were processed

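Poly(A) RNA of 6 cauda sperm and 6 whole testis libraries was sequenced as paired ends. The submitters name FastQC 0.11.2, Trimmomatic 0.36, HISAT2 2.1.0 on GRCm38/mm10, StringTie, and DESeq2 1.12.4 for their own comparison, which was not used. The deposited values were unnormalized counts per gene name. How they were counted, their use of strand and multimapping reads are not stated, so genes that share exon bases are uncertain.

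Each table was fitted apart in R 4.3.3 with edgeR 4.0.16 (limma 3.58.1) by filterByExpr, TMM and a two-sided quasi-likelihood test without covariates, tested on simulated data. Benjamini-Hochberg adjustment ran over 20945 genes in sperm and 16821 in testes. An exact permutation test of 3 against 3 libraries cannot go below 0.1. Replicate variation was a common coefficient of 0.287 in sperm and 0.174 in testes. With 1 library left out, the smaller group was assumed to vary like the other. RPKM used GENCODE M21 exons. Python 3.11.15 read annotation and promoters, and matplotlib 3.10.9 drew figures.

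Members and lists were chosen with earlier results of these data known. Named genes were the members, the targeted genes, for each related list the most abundant gene in WT and up to 2 with the largest rise and 2 with the largest fall among those passing, the paralogues, and the 5 nearest in pattern. Other genes named in small counts, marker genes included, were chosen after their values were seen. Garin1a is listed as Fam71f2. Alternatives were RLE size factors, library size alone, no filter, at least 10 counts in every library, DESeq2 1.42.0, replicate number as a block, other thresholds, each library left out, and longest transcripts. Leaving libraries out of the related lists and of the order by RPKM was chosen after seeing the data.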

Additional observations from a re-analysis of the deposited data

How the results depend on the processing

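No member's log2 fold change turned its direction under the alternatives that were run. Of the member fold changes, 82 values in sperm had the same call as with the main settings, 32 lost it and 6 gained one, and 81 had the same call in testes. In sperm, the number of members called higher was 9 with RLE size factors or no filter and 8 with library size alone, at least 10 counts or DESeq2. Without 1 library it lay between 0 and 10. The numbers of all sperm genes then lay between 1 and 2402 higher and between 1 and 443 lower, and the cause was not tested. Genes called lower in sperm were 149 with library size alone, for which the cause was not tested. With no fold change threshold they were 643, and with an unadjusted p under 0.05 and a fold change above 2 there were 605 lower and 2385 higher, which follows from the looser thresholds. In testes, no fold change threshold gave 4202 higher and 4734 lower for the same reason. Members called lower in testes were 3 of 4 tested with at least 10 counts in every library, since the filter took out members near 0 in cKO. The median log2 fold change of all sperm genes moved from -0.08 with TMM to 0.10 with DESeq2 and 0.13 with no filter, which turned its sign and exceeded 0.1.

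With a replicate block, 1147 sperm genes were called higher and 147 lower, and 6 members higher, without Acr and Acrbp. In testes the replicate block gave 661 higher, 1782 lower and 6 members lower. Replicate numbers do not pair: deviations of WT and mutant libraries of the same number correlated across genes at 0.15, -0.02 and -0.08 in sperm and 0.01, -0.01 and -0.01 in testes.

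With the longest transcript as length, Acrbp had 25.1 RPKM in WT sperm, 63.3 in KO sperm, 15.6 in WT testes and 4.12 in cKO testes. Spaca1 had 9.19, 32.0, 6.34 and 8.60 RPKM. Both moved because that length is shorter than the merged exons. Depth limits the members near 0 in testes: Spaca3, Spaca4 and Spaca7 were not detectable above 3 counts per library.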
